A study of Mus musculus with 21 samples.

Results

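The genes described here are 30 that make or regulate cholesterol and fatty acids, chosen by gene symbol from the 45706 genes of the deposited expression table. They comprise 7 genes of the mevalonate steps, 11 genes that carry squalene to cholesterol, 4 regulators or sterol carriers, and 8 genes of fatty acid synthesis and desaturation. All 30 were found, and all 30 passed the filter on low values that left 13503 genes for testing.

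RNA came from CD31+ cells sorted out of mammary tumours that the mouse line E0771.lmb formed in adult mice. The Shb iECKO mice (KO) carried Shb flox/flox and Cdh5-CreERt2, in which tamoxifen activates a Cre recombinase driven by an endothelial promoter. Wild-type mice (WT) formed the other group, and the protocol gives tamoxifen injection for both. Shb encodes an adaptor protein that acts downstream of tyrosine kinase receptors. There were 10 KO libraries from 8 tumours and 11 WT libraries from 9 tumours, spread over 4 experiments, and tumours were taken on days 14 to 16. The labels do not say which libraries share a tumour, so p-values partly measure the spread within tumours. The protocol also names a blood-cell Cre line (Vav1-cre), to which no library is assigned, and a step with CD45+ cells before the CD31 sort.

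Cholesterol is built from acetyl-CoA through mevalonate and squalene, and each step has its own enzyme. When membrane sterol falls, the SREBP transcription factors are carried from the endoplasmic reticulum to the Golgi, cut, and enter the nucleus, where SREBP2 acts mainly on sterol genes and SREBP1 mainly on fatty acid genes. INSIG proteins hold the precursors back when sterol is plentiful. Endothelial cells use this supply for membranes, lipid rafts and protein prenylation, and dividing cells need more of it.

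The libraries were not alike in content. Each held between 12178 and 20526 genes above 0 TPM (a level per gene length, scaled to the same total in every library), and mitochondrial transcripts made up 1.27% to 23.01%. The endothelial marker Pecam1 had a median of 1235 TPM, but only 241.7 TPM in KO replicate 2 of experiment 4, and among WT libraries 95.04 TPM (replicate 2, experiment 4) and 461.2 TPM (replicate 1, experiment 2). A pair of columns carries the header of KO replicate 3 of experiment 2 (here 3a and 3b), and no column names KO replicate 3 of experiment 4. The sample titles, however, include a KO replicate 3 for experiment 2 and another for experiment 4. Values in 3b carry 6 decimals, as in the 5 columns of experiment 4, and those in every other column, 3a included, carry 2. Column 3b is number 18 and stands directly before those of experiment 4 (19 to 23). It may thus be the missing library of experiment 4, but its header names experiment 2 and no label settles this. Values below keep it in experiment 2 unless stated. The log2 values of 3a and 3b correlated at 0.809 across genes at or above 1 TPM in each, inside the 0.735 to 0.957 of other library pairs of one genotype and experiment. Shb itself had 6.00, 13.7 and 52.7 TPM (lowest, median, highest) in KO libraries, against 17.3, 31.8 and 74.3 TPM in WT libraries, and the groups overlapped. Every KO library lay below every WT library in experiments 2 and 4. In experiment 1 KO libraries had 36.3 and 52.7 TPM and WT libraries 34.9, 17.3 and 74.3 TPM. In experiment 3 KO libraries had 13.0 and 40.4 TPM and WT libraries 31.8 and 18.3 TPM. A lower Shb was thus not seen in experiment 1. The log2 difference was -0.91 (two-sided exact permutation within experiments, p = 0.0223 over 21000 arrangements). That p is for Shb alone and is not adjusted for other genes. In the limma test over all genes, used below, Shb was not called (limma adjusted p = 0.82). Without the 3 libraries low in Pecam1 the log2 difference of Shb was -0.82 (exact permutation p = 0.0748).

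Scd2, a stearoyl-CoA desaturase that puts the first double bond into saturated fatty acids, had the highest median of the 30 genes, 142.5 TPM over all libraries. Acly, which makes cytosolic acetyl-CoA from citrate, followed with 91.9 TPM, and Srebf1, the gene of SREBP1, with 71.9 TPM. Hsd17b7, a ketoreductase of the late sterol steps (chr1:169949535-169969241, minus strand, GRCm38), had the lowest median, 5.53 TPM. Enzymes of the squalene-to-cholesterol steps had medians between 5.53 and 22.9 TPM, while the 4 regulators and carriers lay between 46.5 and 71.9 TPM. Of the 30 genes, 11 were listed at 0 in 1 library each. Because the samples are bulk RNA, fewer cells of a type and less RNA per cell cannot be told apart in any of these levels.

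None of the 30 genes passed the test between KO and WT. The limma test with an experiment term called 1 of 13503 genes (Hist1h4m, a histone gene with near-identical copies, named after its value was seen), which is 0.00741% of all genes. The smallest adjusted p among the 30 was 0.82. Shb itself also had a limma adjusted p of 0.82, so this test did not call the targeted gene either. At an unadjusted p under 0.05 there were 2 of the 30, Scd1 and Hsd17b7, against 5.88% of all genes; both were lower in KO, as were 4.93% of all genes at that p (666 of 794 genes, and 474 of 995 with libraries scaled to a common median). The log2 difference, KO minus WT, was below 0 for 26 of the 30 genes, against 64.0% of all genes; with libraries scaled to a common median it was below 0 for 24, Srebf1 and Acly being the 2 that turned. Its median was -0.37 over the 30 genes and -0.11 over all genes. Without the 3 libraries low in Pecam1 the median was -0.17, with 21 of 30 genes below 0 (-0.03 over all genes), and without KO replicates 3a and 3b it was -0.18, with 22 of 30 below 0 (-0.01 over all genes). Leaving out 1 library made the difference over 1.5 times smaller or turned its sign in at least 1 fit for 25 of 30 genes. The other 5 were Scd1, Dhcr7, Hsd17b7, Hmgcs1 and Acaca. With all of experiment 2 left out, these 5 were at -1.10, -0.28, -0.76, -0.004 and -0.007, in that order. KO and WT libraries overlapped for each of the 30, as for all 13503 genes (0% not overlapping).

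**Figure D1:**
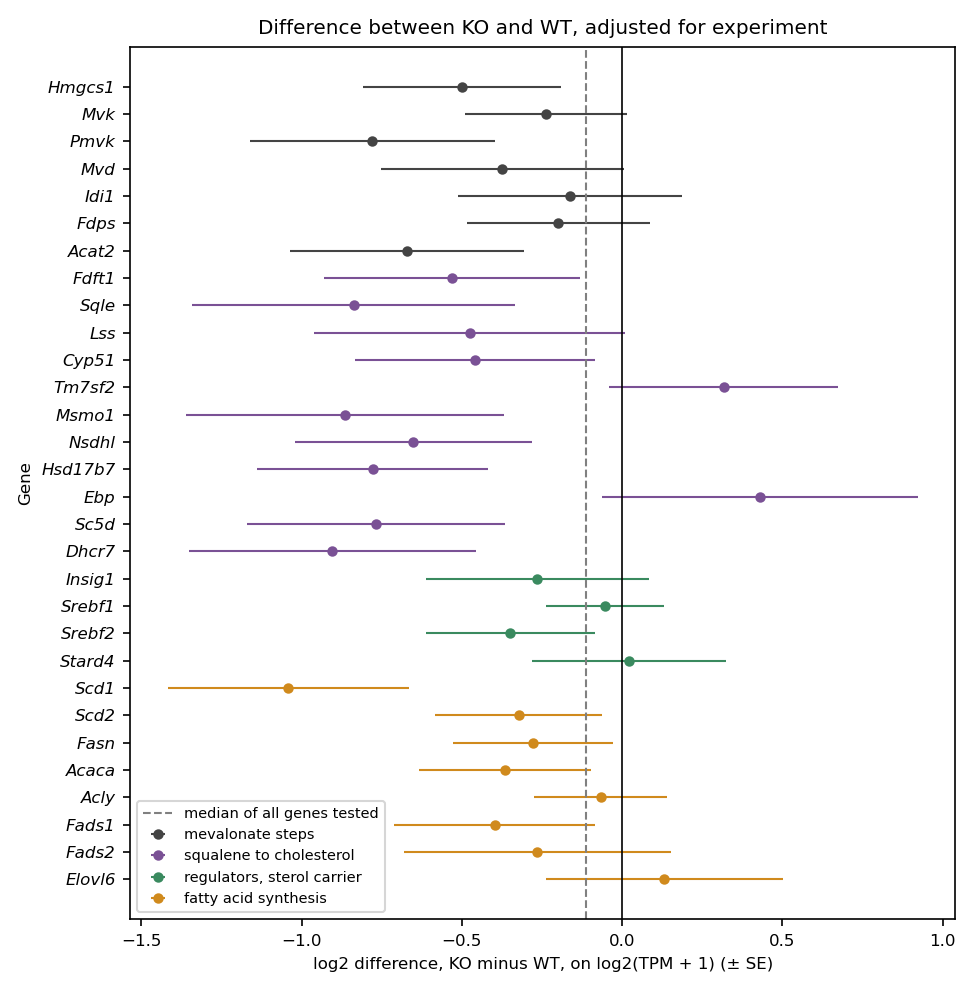
Points give the log2 difference, KO minus WT, of each of the 30 genes on log2(TPM + 1), adjusted for experiment, with bars of ± 1 SE and colours by role; the dashed line is the median of all genes tested. Most points lie left of 0, Scd1 lies farthest left at -1.04, and Ebp, Tm7sf2, Elovl6 and Stard4 lie right of 0.

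Among the mevalonate steps, all 7 genes had log2 differences below 0, with a median of -0.37, and 0 of 7 passed the test. Pmvk, which adds the second phosphate to mevalonate, had 0.00, 11.3 and 15.9 TPM (lowest, median, highest) in KO libraries, against 8.69, 15.0 and 30.5 TPM in WT libraries. Both ranges overlapped, and KO replicate 3a of experiment 2 was the library listed at 0. The log2 difference of Pmvk was -0.78 (SE 0.38, limma adjusted p = 0.82). Acat2, the cytosolic thiolase that condenses acetyl-CoA at the start of the route, had 0.00, 7.42 and 14.9 TPM in KO libraries, against 4.60, 14.0 and 20.0 TPM in WT libraries. Its groups overlapped too, and the difference was -0.67 on the log2 scale (SE 0.37, limma adjusted p = 0.822). For Hmgcs1, the HMG-CoA synthase, KO libraries had 8.77, 36.2 and 61.3 TPM and WT libraries 17.5, 43.8 and 74.3 TPM, again with overlap. The other 4 genes were Mvk and Mvd, which phosphorylate and decarboxylate the mevalonate intermediates, Idi1, the isopentenyl diphosphate isomerase, and Fdps, which makes farnesyl diphosphate. Their log2 differences ran from -0.37 for Mvd to -0.16 for Idi1.

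The squalene-to-cholesterol enzymes had the lowest median log2 difference of the 4 role groups, -0.65, with 9 of 11 below 0 and 0 of 11 past the test. Dhcr7, which catalyses the last reduction to cholesterol, had 0.00, 10.3 and 26.8 TPM in KO libraries, against 5.49, 14.8 and 30.0 TPM in WT libraries. Its log2 difference was -0.90 (SE 0.45, limma adjusted p = 0.82), and the groups overlapped over most of their range. Hsd17b7 had 0.00, 4.61 and 14.6 TPM in KO libraries, against 3.01, 5.58 and 13.0 TPM in WT libraries. The highest and the lowest libraries for this gene were both KO, replicate 3a of experiment 2 and replicate 2 of experiment 4. The difference for Hsd17b7 was -0.78 on the log2 scale (SE 0.36, unadjusted p = 0.042, limma adjusted p = 0.82). Msmo1, the sterol C4-methyl oxidase, and Sqle, the squalene epoxidase, had log2 differences of -0.87 (SE 0.50) and -0.84 (SE 0.50). For these enzymes the medians were close, 21.9 TPM in KO and 23.5 TPM in WT for Msmo1, and 13.2 TPM in KO and 12.5 TPM in WT for Sqle. Their highest library was in both cases WT replicate 2 of experiment 4, with 80.4 TPM of Msmo1 and 61.5 TPM of Sqle, and their lowest was a KO library listed at 0. Without that KO library the log2 difference was -0.48 for Msmo1 (3b left out) and -0.55 for Sqle (3a left out). Sc5d and Nsdhl, a late desaturase and a decarboxylating dehydrogenase, had -0.77 and -0.65, and Fdft1, the squalene synthase, had -0.53. Each was listed at 0 in KO replicate 3b of experiment 2. Without that library Sc5d had -0.46, Nsdhl -0.41 and Fdft1 -0.29. Lss and Cyp51, the lanosterol synthase and demethylase, had -0.48 and -0.46. Ebp, a sterol isomerase, and Tm7sf2, a sterol reductase, had values above 0, 0.43 (SE 0.49) and 0.32 (SE 0.36). Ebp dropped to 0.05 without WT replicate 2 of experiment 1, the library in which it is listed at 0, and Tm7sf2 to 0.16 without WT replicate 2 of experiment 2. Tm7sf2 overlaps Vps51 on the same strand, and Fdft1 and Cyp51 overlap Ctsb and Akap9 on the opposite strand. The kit keeps strand but the counting setting is not stated, so reads of such neighbours may be shared.

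Promoter stretches are shown for Hmgcs1 of the mevalonate steps, for Hsd17b7, Msmo1 and Nsdhl of the later sterol steps, for Srebf2 and for Fasn. These were picked by name and each holds CCAAT, so they do not stand for all genes of a role. Each is the 150 bases before the RefSeq transcript start in GRCm38.p6, read 5′ to 3′ on the gene's strand. GENCODE, the source of the gene positions given here, places some starts elsewhere. By its bounds the Msmo1 stretch lies inside the gene (chr8:64718139-64733792), and those of Srebf2 (chr15:82147181-82205379) and Hsd17b7 lie partly inside. Capitals mark CCAAT on either strand (ATTGG on the strand shown) and, in Hmgcs1, TCACNCCAC, a sterol-regulatory-element-like motif.
Hmgcs1, chr13:119690201-119690350, plus strand: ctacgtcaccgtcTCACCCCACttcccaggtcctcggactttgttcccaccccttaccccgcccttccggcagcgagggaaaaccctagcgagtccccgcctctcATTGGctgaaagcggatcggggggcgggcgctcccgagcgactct
Hsd17b7, chr1:169969206-169969355, minus strand: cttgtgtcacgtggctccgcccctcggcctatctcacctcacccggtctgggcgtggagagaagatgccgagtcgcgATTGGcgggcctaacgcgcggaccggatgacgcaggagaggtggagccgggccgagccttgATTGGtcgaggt
Msmo1, chr8:64733579-64733728, minus strand: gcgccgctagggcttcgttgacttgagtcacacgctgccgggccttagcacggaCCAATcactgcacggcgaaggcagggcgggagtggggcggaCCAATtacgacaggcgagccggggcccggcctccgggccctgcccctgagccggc
Nsdhl, chrX:72918371-72918520, plus strand: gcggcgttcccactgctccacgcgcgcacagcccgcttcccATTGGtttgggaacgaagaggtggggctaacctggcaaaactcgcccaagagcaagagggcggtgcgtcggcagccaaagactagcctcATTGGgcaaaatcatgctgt
Srebf2, chr15:82147119-82147268, plus strand: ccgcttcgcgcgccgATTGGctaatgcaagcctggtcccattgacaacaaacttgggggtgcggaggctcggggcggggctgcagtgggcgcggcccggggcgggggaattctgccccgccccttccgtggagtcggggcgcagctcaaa
Fasn, chr11:120824548-120824697, minus strand: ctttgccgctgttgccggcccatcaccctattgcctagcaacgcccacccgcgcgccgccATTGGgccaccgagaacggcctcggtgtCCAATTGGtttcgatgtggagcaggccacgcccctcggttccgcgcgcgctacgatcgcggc
RefSeq promoters of 300 bases (250 before to 50 after the start) matched 23 of the 30 genes. All motifs were searched on both strands. CCAAT was present in 19 of 23, or 82.6%, against 41.06% of 27025 genes with such a window. It was absent from Acat2, Acaca, Fads2 and Elovl6, so among fatty acid genes with a window only Acly and Fasn held it. GGGCGG, the GC-box core, was also present in 19 of 23, against 38.2% of genes. CACGTG was present in 4 genes (8.09% of all), CACNCCAC, which lies within TCACNCCAC, in Insig1, Hmgcs1 and Acat2 (7.12% of all), and the full TCACNCCAC in Hmgcs1 (1.44% of all). Genes with several starts count once if any window matched, and these matches are descriptions of letters in a window. The shares of all genes count every gene with a window, expressed here or not, whereas the 30 genes passed the filter on low values. Shares among expressed genes alone were not taken.

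The 4 regulators and carriers had log2 differences between -0.35 and 0.02 and 0 of 4 past the test. Srebf2, the gene of SREBP2, had 24.1, 43.7 and 67.6 TPM in KO libraries, against 29.8, 56.8 and 99.3 TPM in WT libraries, which overlapped. Its log2 difference was -0.35 (SE 0.26, limma adjusted p = 0.865). Insig1, the membrane protein that retains SREBP precursors and is itself an SREBP target, had 6.20, 55.7 and 83.9 TPM in KO libraries, against 22.3, 48.5 and 85.4 TPM in WT libraries. The KO median was thus the higher one, while the log2 difference was -0.27 (SE 0.35, limma adjusted p = 0.935), with the lowest value in KO replicate 3b of experiment 2. Srebf1 averaged 69.5 ± 23.2 TPM in KO libraries (SD, n = 10) and 69.2 ± 20.0 TPM in WT libraries (SD, n = 11). Srebf1 and Stard4, a cytosolic sterol carrier, had log2 differences of -0.05 (SE 0.19) and 0.02 (SE 0.30).

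For fatty acid genes, 7 of 8 log2 differences were below 0, with a median of -0.30, and 0 of 8 passed the test. Scd1 (chr19:44394455-44407879, minus strand, GRCm38), another stearoyl-CoA desaturase, had 2.66, 6.31 and 11.4 TPM in KO libraries, against 2.97, 19.9 and 52.4 TPM in WT libraries. Every KO library lay at or below 11.4 TPM, but 3 WT libraries (3.45, 2.97 and 8.61 TPM) lay inside the KO range. The log2 difference was -1.04 (SE 0.38, unadjusted p = 0.0111, limma adjusted p = 0.82), the lowest of the 30. Within experiments it was -0.84, -0.92, -1.39 and -1.13 in experiments 1 to 4, below 0 in 4 of 4. Without the 3 libraries low in Pecam1 the value for Scd1 was -0.73 (limma adjusted p = 0.999). Acaca, the acetyl-CoA carboxylase that commits carbon to fatty acids, had 9.18, 19.5 and 25.1 TPM in KO libraries, against 7.08, 23.9 and 40.7 TPM in WT libraries. The WT range enclosed the KO range, and the log2 difference was -0.37 (SE 0.27, limma adjusted p = 0.853). Fasn, the fatty acid synthase, averaged 33.3 ± 9.75 TPM in KO libraries (SD, n = 10) and 41.5 ± 17.7 TPM in WT libraries (SD, n = 11), a log2 difference of -0.28 (SE 0.25). Acly averaged 91.7 ± 38.7 TPM in KO libraries and 90.8 ± 29.1 TPM in WT libraries (same n), with a log2 difference of -0.07 (SE 0.21). Elovl6, which elongates palmitate, had a difference of 0.13 (SE 0.37).

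Paralogue pairs kept a fixed order in most libraries. Scd2 exceeded Scd1 in 21 of 21 libraries, by a median ratio of 18.8 in KO libraries (5.68 to 51.0) and 6.95 in WT libraries (3.38 to 60.2). The WT range of this ratio enclosed the KO range. Scd2 itself averaged 134.9 ± 66.8 TPM in KO libraries (SD, n = 10) and 152.7 ± 41.9 TPM in WT libraries (SD, n = 11), and its difference was -0.32 on the log2 scale (SE 0.26, limma adjusted p = 0.883). Srebf2 exceeded Srebf1 in 0 of 10 KO libraries and in 4 of 11 WT libraries. Those 4 were replicates 1 (1.33) and 2 (1.00) of experiment 2, replicate 2 of experiment 3 (1.20) and replicate 2 of experiment 4 (1.81). The first and the last are the WT libraries low in Pecam1, and replicate 2 of experiment 3 is the library highest in macrophage markers. The part of cell content in this count was not tested. Fads1 and Fads2, the delta-5 and delta-6 desaturases of polyunsaturated fatty acids, stood in the order Fads1 above Fads2 in 9 of 10 KO libraries and 9 of 11 WT libraries. Their log2 differences, KO minus WT, were -0.40 (SE 0.31) for Fads1 and -0.27 (SE 0.42) for Fads2.

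**Figure D2:**
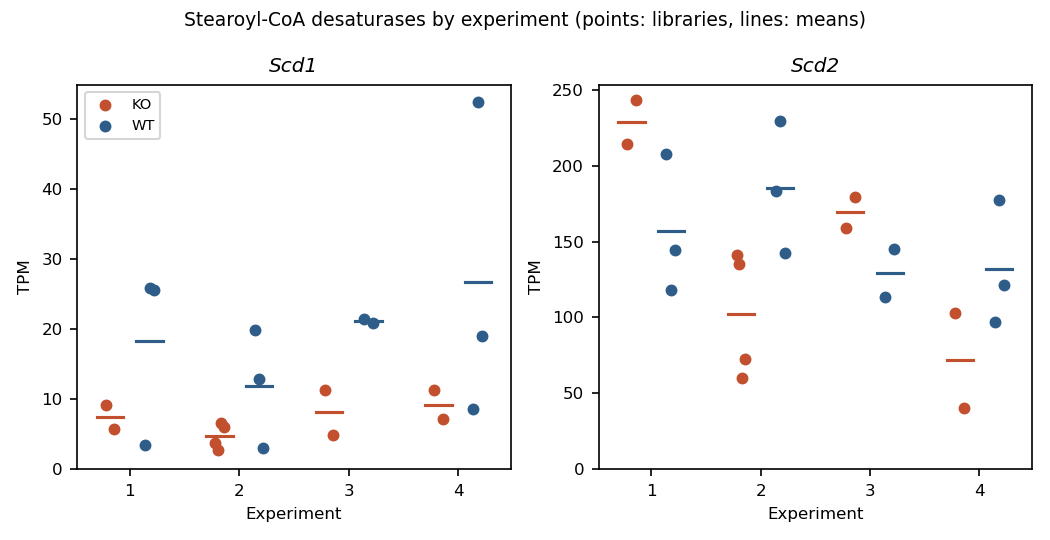
TPM of Scd1 (left) and Scd2 (right) by experiment, with 1 point per library, KO left of WT within each experiment, and lines at the means. Scd1 means were lower in KO in each of the 4 experiments, with WT libraries reaching 52.4 TPM, while Scd2 means were higher in KO in experiments 1 and 3 and lower in experiments 2 and 4.

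Single libraries carried much of the spread of the sterol enzymes. The summed TPM of the 18 enzymes from Acat2 to Dhcr7 was 161.1, 267.9 and 365.3 (lowest, median, highest) in KO libraries, against 217.6, 345.7 and 636.0 in WT libraries. The 3 highest sums were all in WT libraries, 636.0 (replicate 2, experiment 4), 520.0 (replicate 2, experiment 3) and 493.2 (replicate 1, experiment 2). The first of these had the highest level of 8 of the 18 enzymes, and was among the top 3 libraries for 14. The lowest sums were 161.1 in KO replicate 2 of experiment 4, then 166.3 in KO replicate 3b and 197.0 in KO replicate 3a of experiment 2. Mitochondrial transcripts made up 23.01%, 17.18% and 7.94% of these 3 KO libraries, in that order, against 1.27% to 3.78% in the WT libraries of experiment 2 and 6.25% to 17.72% in those of experiment 4. The same KO libraries had 12747, 12515 and 12178 genes above 0 TPM, and the 3 WT libraries with the highest sums had 18109, 20526 and 19884. Mitochondrial transcripts made up 17.72%, 5.5% and 1.27% of those 3 WT libraries, so the highest sum came with a share above that of 3b. WT replicate 3 of experiment 1 had the next highest sum, 432.9, with 13275 genes above 0 TPM and 7.06% mitochondrial transcripts. The part of RNA quality in the sterol values was not tested. In each of 3a and 3b, 4 of the 18 enzymes were listed at 0, against 1 or none in any other library. Leaving out the 3 libraries low in Pecam1 turned the order of the medians, to 312.5 TPM in KO libraries and 249.3 TPM in WT libraries, while the means stayed lower in KO, at 279.7 ± 76.6 TPM (SD, n = 9) and 316.3 ± 110.3 TPM in WT libraries (SD, n = 9).

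Markers of other cells were high in some of the same libraries. The summed TPM of 6 epithelial markers (Krt8, Krt18, Krt19, Epcam, Cdh1, Krt7) was 0.00 to 140.1 in KO libraries and 1.58 to 271.6 in WT libraries, and 5 of the 6 had a median of 0. The value of 271.6 belongs to WT replicate 2 of experiment 4, and WT replicate 2 of experiment 3 had 142.1. KO replicate 2 of experiment 4, the library lowest in sterol enzymes, had 140.1. The 8 macrophage markers summed to 6020 TPM in WT replicate 2 of experiment 3, against 23.5 to 245.9 TPM in KO libraries and 42.9 to 708.5 TPM in the other WT libraries, and none of the 8 was listed at 0 in every library. Genes of cycling cells (8 markers, all 8 tested) summed to 82.8 to 440.6 TPM in KO libraries and 146.5 to 497.0 TPM in WT libraries. Their lowest sum was in KO replicate 2 of experiment 4 and their highest in WT replicate 2 of experiment 3. Log2 differences, KO minus WT, were below 0 for 64.0% of all genes. They were below 0 in 6 of 6 leukocyte, 8 of 8 macrophage, 4 of 4 fibroblast and 4 of 4 pericyte markers tested. The only epithelial and the only adipocyte marker tested were also below 0. Of 4 markers of lactating mammary epithelium (Csn2, Csn3, Wap, Lalba), the only 1 tested was not below 0. These 4 summed to 0.00 to 14.97 TPM in KO libraries and 0.00 to 10.49 TPM in WT libraries, and 3 had a median of 0. Of cycling-cell markers 6 of 8 were below 0, and of endothelial markers 1 of 10, so most endothelial markers were higher in KO. Pericyte markers (5 genes) summed to 4.51 to 116.4 TPM in KO libraries and 20.1 to 152.6 TPM in WT libraries, and in experiment 2 to 4.51 to 13.3 TPM in KO and 20.1 to 51.8 TPM in WT. Fibroblast markers (7 genes, Lum and Fbln1 with a median of 0) summed to 8.15 to 154.0 TPM in KO libraries and 28.0 to 580.1 TPM in WT libraries, and leukocyte markers (6 genes) to 72.8 to 224.8 TPM in KO and 102.7 to 1588 TPM in WT. Of 6 adipocyte markers, 5 had a median of 0 (Adipoq, Plin1, Cidec, Lep and Retn), and the 6 summed to 0.00 to 11.8 TPM in KO libraries and 0.25 to 16.3 TPM in WT libraries. Of 10 endothelial markers, all 10 were tested, and their sums were 1482 to 9602 TPM in KO libraries and 505.4 to 10200 TPM in WT libraries. The part of these cells in the sterol gene values was not tested.

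**Figure D3:**
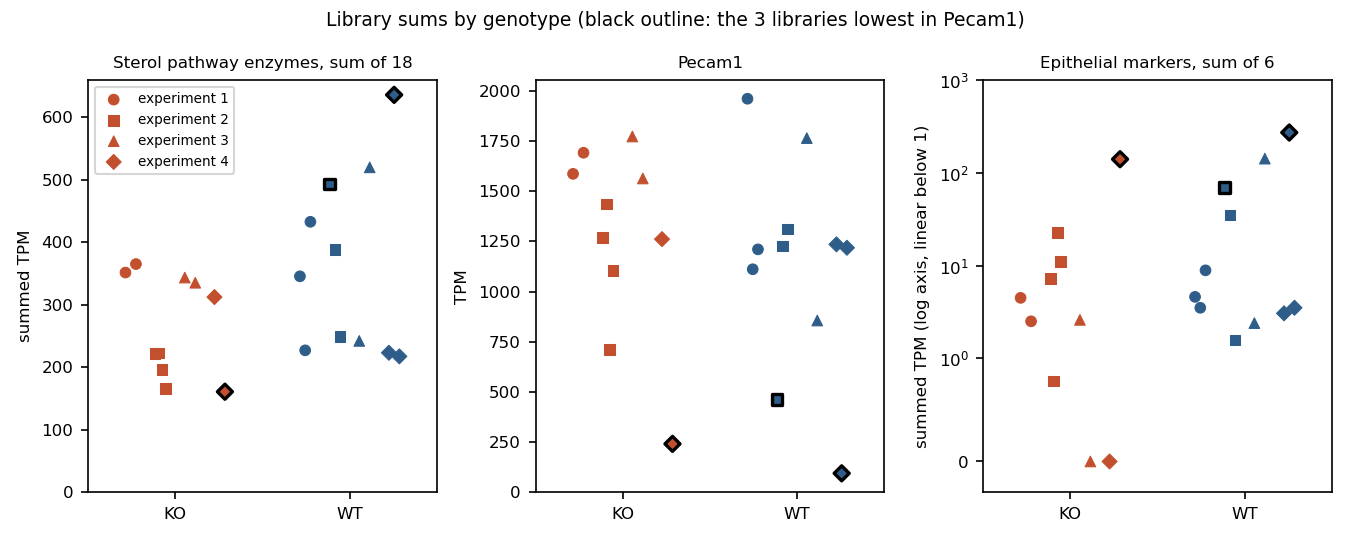
One point per library, KO left of WT, with marker shapes for experiments and black outlines for the 3 libraries lowest in Pecam1; the panels show the summed TPM of 18 sterol enzymes, the TPM of Pecam1, and the summed TPM of 6 epithelial markers on a log axis that is linear below 1. The outlined WT libraries are at 636.0 and 493.2 TPM of sterol enzymes and the outlined KO library at 161.1 TPM.

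**Figure D4:**
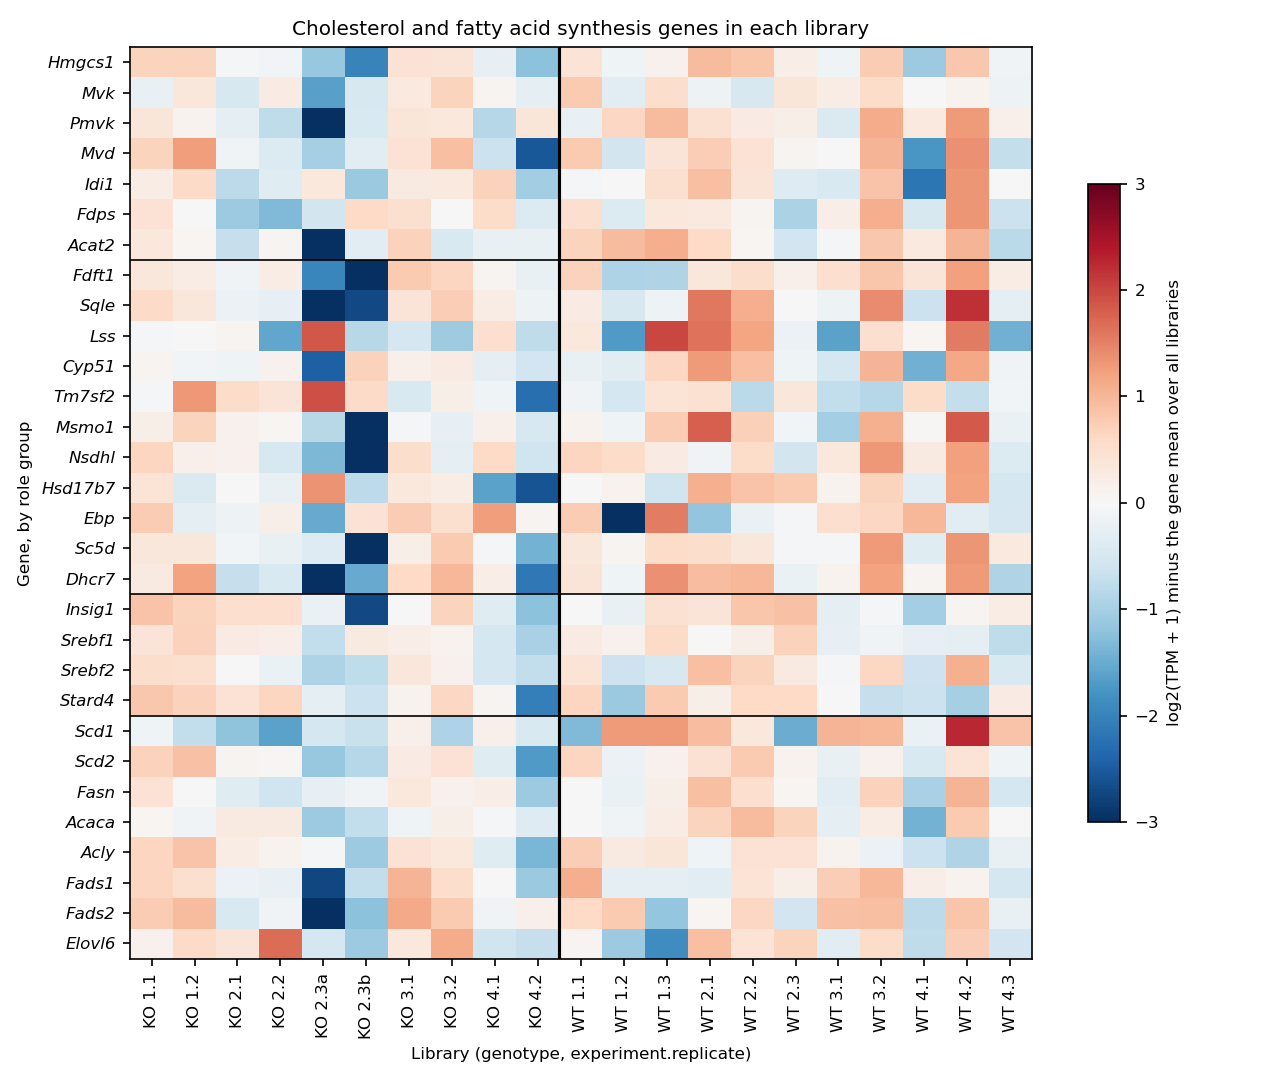
Colours give log2(TPM + 1) of each of the 30 genes minus its mean over all libraries, with KO libraries left of the black line and WT libraries right of it, named by experiment and replicate, and horizontal lines between role groups. Blue columns stand out at KO 2.3a, KO 2.3b and KO 4.2, and red columns at WT 2.1, WT 3.2 and WT 4.2.

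The balance of the 30 genes differed from one experiment to the next. Mean log2 differences, KO minus WT, were below 0 for 8 of 30 genes in experiment 1, where this held for 27.5% of all genes. They were below 0 for 28 in experiment 2 (64.6% of all genes), for 12 in experiment 3 (43.7%) and for 27 in experiment 4 (82.6%). In experiments 1, 3 and 4 the median of the 30 genes lay near that of all genes: 0.24 against 0.30 in experiment 1, 0.05 against 0.08 in experiment 3 and -0.47 against -0.56 in experiment 4. In experiment 2 it was -1.02 for the 30 genes, against -0.19 for all genes. Sqle, Dhcr7 and Msmo1 had the lowest values there, -2.61, -2.14 and -2.10. Without KO replicates 3a and 3b, experiment 2 kept 26 of 30 genes below 0, with a median of -0.46 against 0.17 for all genes. Without WT replicate 1, low in Pecam1, the median of experiment 2 was -0.80 (-0.33 for all genes). With 3b placed in experiment 4, the median was -0.85 in experiment 2 (-0.06 for all genes) and -0.57 in experiment 4 (-0.39 for all genes). Experiment 4 without its libraries low in Pecam1 had a median of 0.19 with 8 of 30 below 0, against -0.17 and 59.8% below 0 for all genes, from 1 KO and 2 WT libraries. In experiment 3, leaving out WT replicate 2 gave a median of 0.47 with 2 of 30 below 0, against 0.08 and 42.3% for all genes, from 2 KO and 1 WT libraries. These within-experiment values have no test, but the interaction of genotype and experiment passed for 0 of 30 genes and 0% of all genes in limma. At an unadjusted p under 0.05 the interaction held for 1 of the 30, Scd2 (p = 0.0428, limma), and 3.84% of all genes.

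Between experiments, with genotype in the model, Acly and Srebf1 (GRCm38 chr11:100476353-100528000 and chr11:60199089-60222581, both minus strand) passed the limma test, 2 of the 30 genes against 29.1% of all genes. Acly averaged 128.1 ± 21.7 TPM in experiment 1 (SD, n = 5), 88.3 ± 26.3 TPM in experiment 2 (n = 7), 96.8 ± 17.7 TPM in experiment 3 (n = 4) and 53.9 ± 16.1 TPM in experiment 4 (n = 5). The adjusted p of Acly was 0.0198 in limma. Srebf1 had means of 88.7 ± 14.6, 74.5 ± 20.2, 66.0 ± 9.62 and 45.6 ± 9.83 TPM in experiments 1 to 4, with a limma adjusted p of 0.0416. Both genes were highest in experiment 1 and lowest in experiment 4, and in both the 5 libraries of experiment 4 lay below the 5 of experiment 1. Scaling libraries to a common median left neither called (limma adjusted p = 0.0952 for Acly and 0.493 for Srebf1), as did leaving out the 3 libraries low in Pecam1 (0.112 and 0.114) and quantile normalization (0.248 and 0.747). With KO replicate 3b placed in experiment 4, Srebf1 was not called (limma adjusted p = 0.106) and Acly was (0.00916). With 1 library left out at a time, Acly stayed called in 21 of 21 fits and Srebf1 in 7 of 21, with limma adjusted p for Srebf1 of 0.0199 to 0.0905. Those 7 fits left out, in turn, 3 libraries of experiment 2 (KO 3a, KO 3b, WT 1), 2 of experiment 3 (KO 2, WT 1), and 1 each of experiments 1 (WT 2) and 4 (WT 1); without any other library the call was lost. Srebf1 overlaps Rai1 on the opposite strand.

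**Figure D5:**
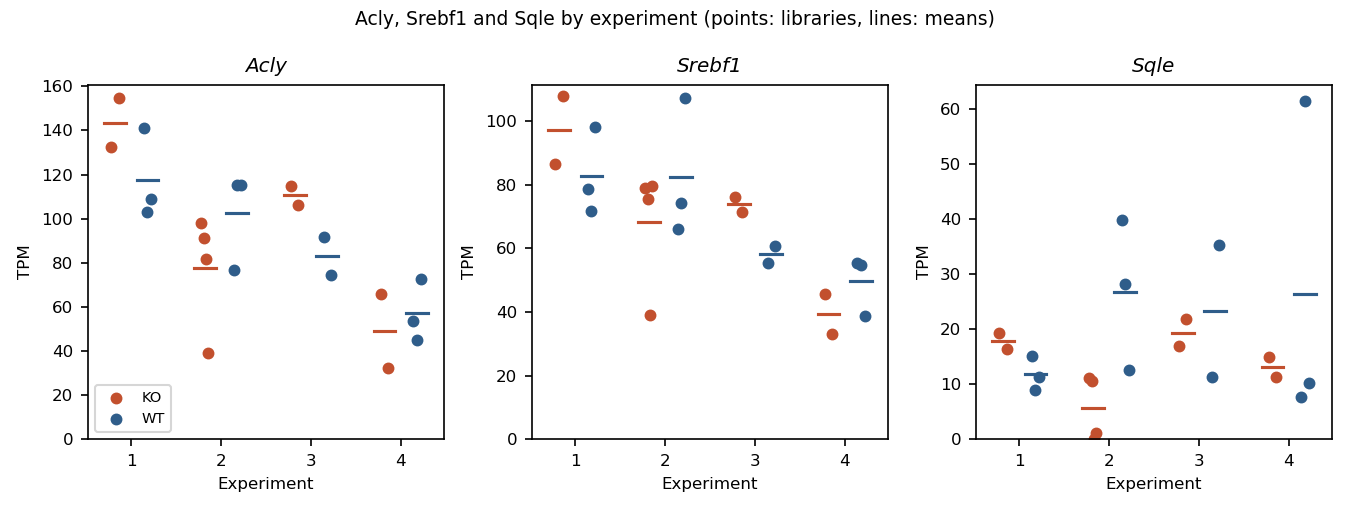
TPM of Acly, Srebf1 and Sqle by experiment, with 1 point per library, KO left of WT within each experiment, and lines at the means. Acly and Srebf1 were highest in experiment 1 and lowest in experiment 4, whereas Sqle reached 61.5 TPM in 1 WT library of experiment 4 and 0 in 1 KO library of experiment 2.

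No other of the 30 genes passed this test; the 2 genes of each role with the smallest p were as follows, beside Acly and Srebf1. Fads1 averaged 25.7 ± 11.0, 15.3 ± 7.53, 34.4 ± 5.57 and 16.4 ± 5.73 TPM in experiments 1 to 4 (limma adjusted p = 0.0818), and Mvd 14.5 ± 6.34, 9.16 ± 3.99, 14.7 ± 4.83 and 7.72 ± 10.0 TPM (limma adjusted p = 0.116). Both had their lower means in experiments 2 and 4. Hsd17b7, listed at 0 in 1 library, had medians of 5.03, 9.42, 6.36 and 3.24 TPM in experiments 1 to 4 (limma adjusted p = 0.119), and Nsdhl had 14.1, 6.36, 12.8 and 11.3 TPM (limma adjusted p = 0.17). Mvk averaged 13.0 ± 4.53, 8.63 ± 3.77, 14.7 ± 2.34 and 10.2 ± 1.16 TPM (limma adjusted p = 0.242). Stard4 averaged 64.3 ± 25.0, 54.7 ± 16.7, 47.5 ± 17.1 and 32.1 ± 17.8 TPM (limma adjusted p = 0.174), so it too was highest in experiment 1 and lowest in experiment 4.

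The 30 genes were set beside others of the same pathways. Of 15 tested genes of synthesis, uptake and SREBP processing, 14 had log2 differences below 0 (64.0% of all genes did), and 0 passed the test. Acss2, which makes acetyl-CoA from acetate, had 0.00, 3.00 and 5.88 TPM in KO libraries, against 3.33, 7.83 and 17.5 TPM in WT libraries. The difference for Acss2 was -1.46 on the log2 scale (SE 0.41, limma unadjusted p = 0.00179, adjusted p = 0.82), below 0 in 4 of 4 experiments. Gpam and Mbtps1, an acyltransferase of glycerolipid synthesis and the site-1 protease of SREBP, had differences of -0.38 (SE 0.26) and -0.25 (SE 0.19). Of 10 genes of LXR signalling, efflux and storage, all were tested, 7 had log2 differences below 0 and 0 passed. Apoe, the lipid carrier that macrophages secrete in quantity, had 9.14, 49.1 and 141.5 TPM in KO libraries, against 33.0, 94.4 and 970.3 TPM in WT libraries. Its log2 difference was -1.30 (SE 0.35, limma unadjusted p = 0.00117, adjusted p = 0.82), and between experiments Apoe and the efflux pump Abca1 passed with adjusted p of 0.00789 and 0.0399 in limma, 2 of 10 where 29.1% of all genes did. The 970.3 TPM came from WT replicate 2 of experiment 3, the library highest in macrophage markers, and their part in the result was not tested. Npc2 and Lpcat3, a lysosomal sterol carrier and a phospholipid acyltransferase, had differences of -0.50 (SE 0.25) and -0.36 (SE 0.22).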

How the data were processed

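The authors deposited TPM values (reads per gene length, scaled to one total per library), and per the submitters' processing notes the genome build was GRCm38. For aligner and counter, nothing is given in the sources used here. Per the labels' protocols, stranded ribosomal-depleted libraries were made from 30 ng total RNA and read as pairs of 150 bases. TPM columns summed to 999999.2 to 1000000.6, so the read depth is not known and intervals for counting error were not possible. Decimal commas were converted. Columns were assigned by header, and both KO replicate 3 columns entered experiment 2 as labelled. The filter asked for 1 TPM or more in 10 or more libraries. log2(TPM + 1) was fitted over 13503 genes with limma 3.58.1 (R 4.3.3; trended, robust prior, statmod 1.5.0), with genotype and experiment terms and Benjamini-Hochberg adjustment at 0.05, after a test on simulated data. This scale understates changes of low genes. The members, gene lists and promoter motifs were chosen with earlier results of these data known. Full values went to the 2 members per role with the smallest p between genotypes and between experiments. Other scalings, filters, pseudocounts, blocks and left-out libraries were tried; Python 3.11.15 made summaries and figures. Gene positions came from GENCODE (GRCm38) and promoters from RefSeq (GRCm38.p6).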

Additional observations from a re-analysis of the deposited data

Results flagged for a closer look

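In a group of 10 libraries, a library was singled out where its gap to the nearest other library exceeded 0.466 of the group's range. Over the 30 KO groups examined, 1 for each gene, this held in 2, and chance marks about 1 in 20 groups; the 11 WT libraries were too many for this rule. Lss had 39.97 TPM in KO replicate 3a of experiment 2, with the next KO library at 15.08 TPM (gap 0.671 of the range). Hsd17b7 had 14.55 TPM in the same library, with the next at 7.12 TPM (gap 0.511 of the range). That library also listed 5 of the 30 genes at 0.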

How the results depend on the processing

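Over 35 alternatives, 0 of the 30 genes was called between KO and WT, with a lowest limma adjusted p of 0.584, and 17 of the 30 kept the sign of their difference in all of them. The number of all genes called was 1, and became 2 under a common median and under quantile normalization, and 0 without experiment 1, without experiment 2 and with experiment and number as a replicate block. The replicate numbers were not found to pair libraries: 2 of 10 pairs correlated above 0.1 (-0.2 to 0.356), both in experiment 4. Of 19 libraries, 7 were closest to their own number. Values were centred within experiment and genotype, so the experiment 3 pairs, from 2 libraries per genotype, had to share 1 value (-0.2). The 10 pairs are therefore not 10 separate checks. With the block 26 of 30 genes stayed below 0 and 0 were called. A common median moved the all-gene median from -0.11 to -0.01 and left 24 of 30 below 0, and the median of the 30 genes relative to all genes stayed at -0.26.

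The count of 2 genes called between experiments became 1 without the filter on low values (Acly) and 1 under quantile normalization (Fdft1, with Acly and Srebf1 both lost). With KO replicate 3b placed in experiment 4 it stayed 2, but with Insig1 in place of Srebf1. It became 0 under a common median, without the 3 libraries low in Pecam1, and without experiment 1, experiment 2 or experiment 4. Leaving out 1 library at a time gave 1 to 3. Shb became -0.82 and its exact permutation p missed 0.05 without the 3 libraries low in Pecam1. Chosen after the data were seen, the median of the 30 genes became -0.46 in experiment 2 without KO replicates 3a and 3b, and 0.19 in experiment 4 without its libraries low in Pecam1. The relative median of the 30 genes over all libraries was 0.06 without experiment 2, where 18 of 30 were below 0.

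Signs turned as follows, and the cause was not tested. Under a common median Srebf1 was 0.055 and Acly 0.04, and with KO replicate 3b placed in experiment 4 Srebf1 was 0.013. Without KO replicates 3a and 3b Insig1 was 0.092, Srebf1 0.034, Acly 0.071 and Fads2 0.16. Without the 3 libraries low in Pecam1 Mvd was 0.12, Idi1 0.22, Fdps 0.049, Srebf1 0.007 and Fasn 0.033. Without experiment 1 Stard4 was -0.17 and Elovl6 -0.23, without experiment 3 Stard4 was -0.14, and without experiment 4 Srebf1 was 0.031. Without experiment 2 Idi1 was 0.15, Fdft1 0.005, Sqle 0.056, Insig1 0.19, Srebf1 0.067, Srebf2 0.021, Acly 0.13 and Fads2 0.33. Hmgcs1, Fasn, Acaca and Scd2 kept their sign there, at -0.004, -0.004, -0.007 and -0.022. Leaving out 1 library at a time gave -0.13 to 0.25 for Stard4, -0.017 to 0.28 for Elovl6, -0.10 to 0.033 for Srebf1, -0.43 to 0.034 for Fads2, -0.37 to 0.002 for Insig1 and -0.13 to 0.04 for Acly.

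Depth is not recorded in TPM, so low values and zeros could not be weighed by read number.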
